A study of Mus musculus with 6 samples.

Results

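Scavenger receptors are cell surface and lysosomal proteins that bind modified lipoproteins, dying cells, microbial surfaces and other polyanionic cargo and carry it into the cell. They belong to unrelated protein families and are best known from macrophages, where uptake of oxidized low-density lipoprotein (LDL) through them fills the cell with lipid. Described here are 8 genes of the 55487 in the count table: Olr1, Cd36, Msr1, Scarb2, Cd68, Stab1, Cd163 and Cxcr6. They were chosen by name as scavenger receptors, and Olr1 also because its level differed between the groups in an earlier look at the same data. That difference, and the mutant-against-wt values of the other 7 genes, are therefore given as a description. Calls among the 8 are counted further on, beside the share over all genes, and nothing is read from them. Cxcr6 is not itself a scavenger receptor. It encodes the chemokine receptor for CXCL16, a membrane-bound chemokine that was also isolated as a receptor for oxidized LDL.

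The libraries are RNA-seq profiles of Ly6G-positive neutrophils, sorted by flow cytometry from mouse lungs that had been perfused, minced and digested with liberase. The mutant group has 3 libraries from Mrp8-Cre;TGFbR2-fl/fl mice, in which Cre under the S100A8 (Mrp8) promoter is meant to remove loxP-flanked Tgfbr2 in neutrophils, and the transgene also carries EGFP. The wt group has 3 libraries from Cre-negative TGFbR2-fl/fl littermates, so both groups carry the loxP-flanked alleles and only mutants carry Cre and EGFP. The ages of the mice were not analysed here. The labels do not tie each library to 1 animal, so the spread measured is that between libraries.

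Library totals ran from 30403494 to 35906780 counts, and 15774 genes passed the filter on low counts. Tgfbr2, the targeted gene, had 176, 205 and 181 CPM in mutant replicates 1 to 3 and 186, 185 and 201 CPM in wt replicates 1 to 3 (CPM, read counts after scaling for library size). Its count pools all exons, so it does not check the deletion, and reads over the loxP-flanked part were not analysed here. Of the 10 neutrophil markers the G-CSF receptor gene Csf3r was highest, at 7969 ± 242 CPM in mutant libraries, against 8505 ± 638 CPM in wt libraries (SD, n = 3 each). The sort marker gene Ly6g was at 21.1 ± 10.8 CPM in mutant libraries, against 26.1 ± 8.21 CPM in wt libraries, and the granule gene Camp was at 1.05 to 3.32 CPM in mutant libraries, against 0.826 to 2.66 CPM in wt libraries. A positive log2 fold change was found for 3 of the 10, Mmp9, Camp and Ltf. S100a8, at 1149 ± 310.2 CPM in mutant libraries, against 1709 ± 36.8 CPM in wt libraries, and Cxcr2, at 2024 ± 99.2 CPM in mutant libraries, against 2567 ± 80.8 CPM in wt libraries, were lower in every mutant library than in any wt library. Over all tested genes 6.21% were lower in every mutant library in this way. By edgeR's quasi-likelihood test the adjusted p was 0.405 for S100a8 and 0.294 for Cxcr2. Transcripts of other lung cells were present as well, and their sums are given below beside the genes they bear on. In such bulk libraries fewer cells of a type and less RNA per cell cannot be told apart.

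Upstream sequence is shown for Olr1 and for Cd68, of the other 7 genes the one whose level followed that of Olr1 most closely over the 6 libraries. Each is the 250 bases before the transcription start in RefSeq on GRCm38.p6, read 5′ to 3′ along the gene, and both genes lie on the minus strand. The Olr1 window is chr6:129507166-129507415 and the Cd68 window is chr11:69666171-69666420. Capitals mark matches to an AP-1 motif (TGANTCA) and, in Cd68, also a C/EBP motif (TTGCNNAA).
Olr1: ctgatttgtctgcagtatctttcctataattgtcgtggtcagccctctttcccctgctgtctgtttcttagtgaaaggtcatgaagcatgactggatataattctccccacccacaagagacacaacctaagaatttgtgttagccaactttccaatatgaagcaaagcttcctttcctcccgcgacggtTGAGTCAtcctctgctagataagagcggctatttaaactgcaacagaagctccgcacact
Cd68: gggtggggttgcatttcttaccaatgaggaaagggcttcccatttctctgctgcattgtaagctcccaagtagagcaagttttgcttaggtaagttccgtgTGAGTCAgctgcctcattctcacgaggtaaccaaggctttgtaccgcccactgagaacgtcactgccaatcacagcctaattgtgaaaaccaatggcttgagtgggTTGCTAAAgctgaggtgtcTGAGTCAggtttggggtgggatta
The Olr1 window held 1 AP-1 match, which begins 60 bases before the start. The Cd68 window held 2 AP-1 matches, beginning 149 and 24 bases before the start, and a C/EBP match that begins 43 bases before it. All 3 AP-1 matches read TGAGTCA. An AP-1 match stood in 6.75% and a C/EBP match in 9.56% of the 32851 windows of that length in the RefSeq table. The other motifs searched, all on both strands, were NF-kB (GGGNNTTTC, in 3.72% of windows), EGR (GCGGGGGCG, 2.57%), SMAD (GTCTAG, 7.11%), PU.1 (GAGGAAGT, 2.44%), the antioxidant response element (TGACNNNGC, 10.2%) and the lysosomal CLEAR element (TCACGTGA, 0.785%). The Scarb2 window held an antioxidant response match and the Stab1 window 2 SMAD matches, and in both an AP-1 match was not found in these letters. The Cd36, Cd163 and Cxcr6 windows held 0 matches to the 8 motifs. The table was searched for each of the 8 genes and gave a window for 7, the other being Msr1. A match of letters describes the sequence and does not show binding.

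Levels of different genes were compared per exon length, in TPM (read counts divided by exon length and scaled to a common sum). In wt neutrophils the most abundant of the 8 were Cd68, at 498 ± 10.4 TPM, and Cd36, at 409 ± 54.8 TPM (SD, n = 3), above 98.1% and 97.7% of the tested genes. Olr1 followed at 54.5 ± 8.07 TPM and Scarb2 at 48.3 ± 6.71 TPM, above 86.4% and 85.0% of the tested genes. Stab1 stood at 13.2 ± 1.36 TPM and Cxcr6 at 6.73 ± 1.08 TPM, near the middle of the tested genes at 64.4% and 51.0%. The macrophage receptors Msr1, at 0.570 ± 0.807 TPM, and Cd163, at 0.286 ± 0.398 TPM, were at the bottom, above 8.51% and 3.13% of the tested genes.

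Mutant neutrophils had the same order. It ran from Cd68 at 592 ± 38.5 TPM and Cd36 at 409 ± 101 TPM through Olr1 at 94.1 ± 12.1 and Scarb2 at 55.9 ± 4.16 TPM to Msr1 at 1.05 ± 0.467 and Cd163 at 0.602 ± 0.490 TPM (SD, n = 3). Neighbours in the order overlapped in their library values for Msr1 and Cd163 in both groups, and for Olr1 and Scarb2 in wt only. The difference between groups in this last overlap was not tested.

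**Figure D1:**
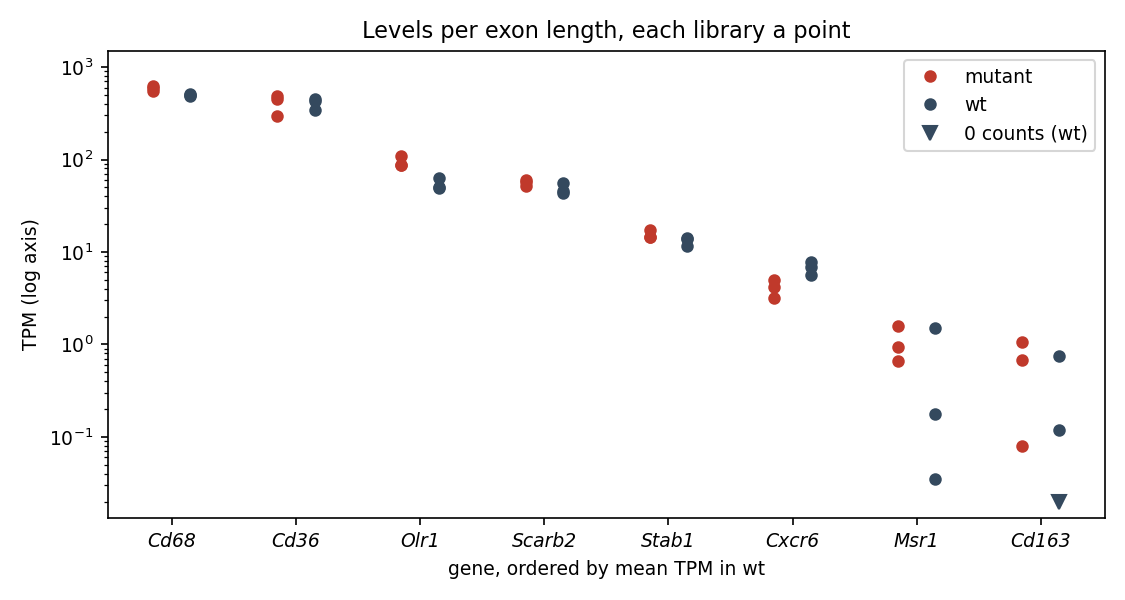
TPM (log axis) of the 8 genes in every library, mutant left and wt right of each gene, in the order of the wt mean; the triangle stands for the wt library with 0 Cd163 counts. Cd68 (498 ± 10.4 TPM in wt) and Cd36 (409 ± 54.8 TPM) lie highest, Olr1 and Scarb2 follow, and Msr1 and Cd163 are lowest with the widest scatter between libraries.

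Olr1 encodes LOX-1, a C-type lectin-like receptor that binds oxidized LDL, apoptotic cells and bacteria, and in humans its surface protein is used to mark immunosuppressive neutrophils. The gene (ENSMUSG00000030162.14) lies on the minus strand of chromosome 6, 129485244 to 129507165 in GRCm38. It had 89.8, 96.2 and 109.8 CPM in mutant replicates 1 to 3, against 52.6, 68.1 and 51.6 CPM in wt replicates 1 to 3. The groups did not overlap, and the lowest mutant library was above the highest wt library by more than the SD of either group, 10.2 CPM in mutant libraries, against 9.24 CPM in wt libraries. The ratio of the means was 1.72, and the fitted log2 fold change was 0.78 ± 0.15 (SE). Since this difference is what brought Olr1 into the set, it supports nothing further here.

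The Olr1 difference was also read within libraries, with no scaling between them. Per 1000 counts of the neutrophil gene Csf3r in the same library, Olr1 had 11.1, 11.9 and 14.3 counts in mutants and 6.38, 8.47 and 5.59 counts in wt. Per 100 counts of Cd68 it had 41.4, 45.0 and 49.0 counts in mutants and 29.3, 35.6 and 28.2 counts in wt. In both ratios every mutant library lay above every wt library, so Olr1 was also higher relative to Cd68, another gene of the set whose own level was higher in mutants. Leaving out each library in turn gave log2 fold changes from 0.70, without mutant replicate 3, to 0.92, without wt replicate 2.

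**Figure D2:**
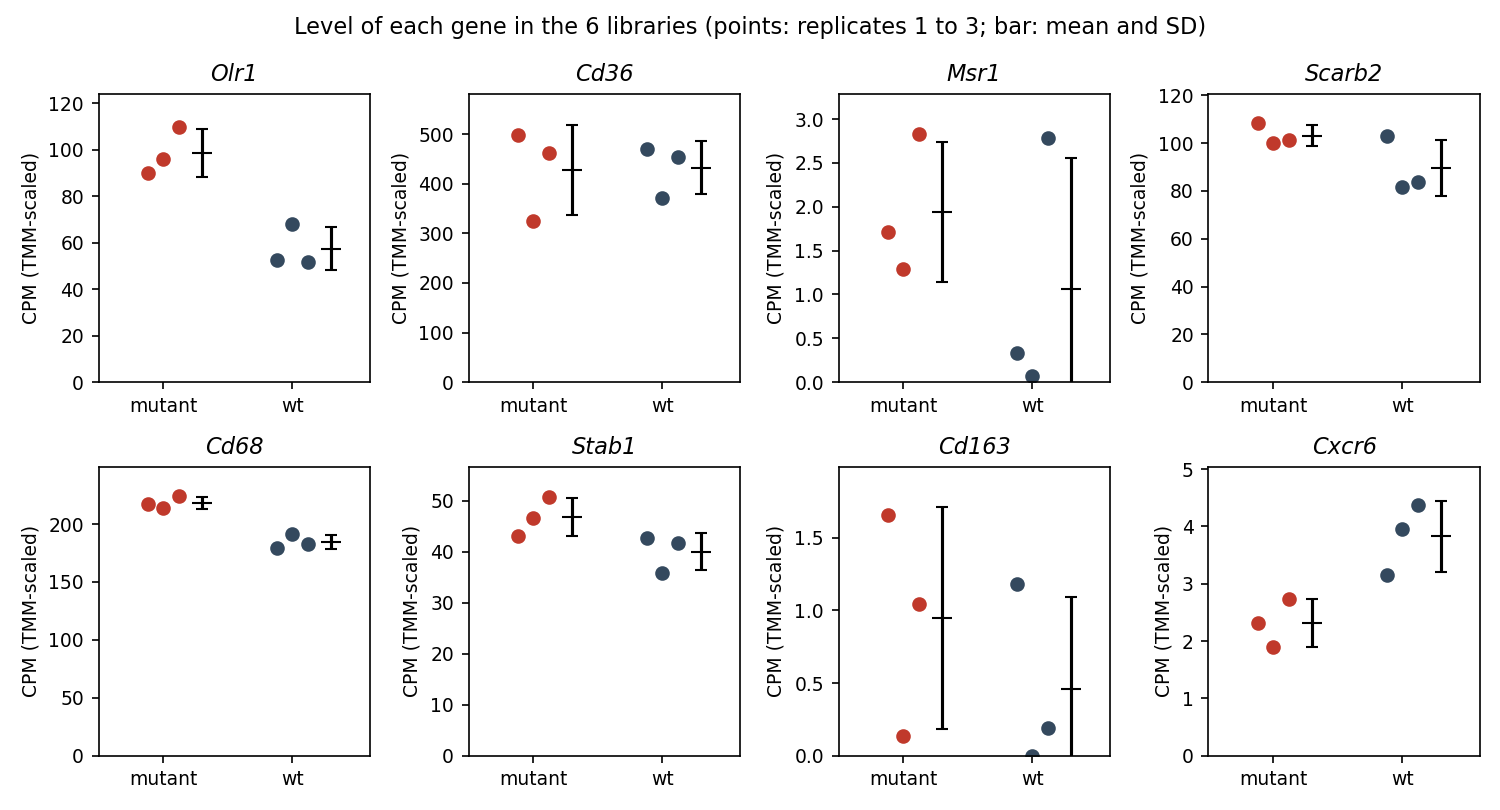
CPM of each of the 8 genes in the 6 libraries, mutant left and wt right, replicates 1 to 3 as points and mean ± SD as bars, which reach below the axis for Msr1 and Cd163 in wt. Olr1, Cd68 and Stab1 have all mutant libraries above all wt libraries, Cxcr6 has them all below, and the other 4 genes overlap.

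Cd68 encodes macrosialin, a heavily glycosylated protein of late endosomes and lysosomes that is used as a myeloid marker and binds oxidized LDL. The gene spans chromosome 11, 69664213 to 69666153 (minus strand). Cd68 had 217, 214 and 224 CPM in mutant libraries, against 179.5, 191 and 183 CPM in wt libraries. The groups did not overlap and the ratio was 1.18, with a log2 fold change of 0.24 ± 0.09 (SE). Over the 6 libraries the log2 CPM of Cd68 followed that of Olr1 with a Pearson r of 0.984, which rests largely on both genes being higher in mutants.

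Scarb2 encodes LIMP-2, a class B scavenger receptor family member that sits in the lysosomal membrane. It lies on chromosome 5, 92441314 to 92506833 (minus strand). Scarb2 had 108, 99.9 and 101 CPM in mutant libraries, against 103, 81.5 and 83.9 CPM in wt libraries. Wt replicate 1 fell within the mutant range, so the groups overlapped, and the log2 fold change was 0.21 ± 0.12 (SE).

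Cd36 encodes the other class B receptor of the set, a fatty acid transporter and receptor for oxidized LDL and thrombospondin 1. It lies on chromosome 5, 17781690 to 17888801 (minus strand). Cd36 had 498, 326 and 462 CPM in mutant libraries, against 470.4, 371 and 454 CPM in wt libraries. The groups overlapped over nearly their whole range, and the ratio of 0.992 had a 95% interval of the fold from 0.777 to 1.27. The log2 fold change was -0.01 ± 0.16 (SE), and its sign changed with the scaling and with the library left out.

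Cd36 is also abundant in lung capillary endothelium, and endothelial transcripts were present in these sorted cells. The summed CPM of the 12 endothelial markers, such as Cldn5 and Plvap, was 1900, 1654 and 1984 in mutants and 2008, 1803 and 2222 in wt. The libraries with the lowest Cd36, mutant replicate 2 and wt replicate 2, were also the 2 libraries with the lowest endothelial sum. The summed CPM of the 10 platelet markers, another source of Cd36 protein, was 12.2 to 18.0 in mutants and 10.3 to 17.8 in wt, with Gp1bb at 0 in every library. How much of the Cd36 count came from either cell type was not tested.

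Stab1 encodes stabilin-1, a large endocytic receptor of sinusoidal endothelium and tissue macrophages that takes up SPARC and modified LDL. Its locus is chromosome 14, 31139013 to 31168641 (minus strand), and 112 bases of its exons overlap exons of Nt5dc2 on the other strand. Nt5dc2 itself was low, at 3.79 ± 0.444 CPM in mutant libraries, against 4.53 ± 1.57 CPM in wt libraries. Stab1 had 43.1, 46.5 and 50.7 CPM in mutant libraries, against 42.6, 35.8 and 41.6 CPM in wt libraries. The groups did not overlap, but only just, since mutant replicate 1 and wt replicate 1 lay close together. The ratio was 1.17, with a log2 fold change of 0.23 ± 0.14 (SE), which ran from 0.15 without wt replicate 2 to 0.32 when scaled to Csf3r counts. All 12 endothelial markers had a negative log2 fold change (median -0.11), while wt replicate 2, with the lowest Stab1, had an endothelial sum below those of mutant replicates 1 and 3. Mutant replicate 2 had the lowest endothelial sum of the 6 libraries, 1654 CPM, with more Stab1 than any wt library, 46.5 CPM. The part of endothelial cells in the Stab1 values was not tested.

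The macrophage receptors Msr1 and Cd163 had few counts in some libraries. Over the 6 libraries 3 counts make 0.0829 to 0.102 CPM, a floor that covers counting error only. Msr1 encodes scavenger receptor A, a trimeric macrophage receptor for acetylated LDL and bacterial surfaces. Its locus is chromosome 8, 39581685 to 39642673 (minus strand). It had 1.71, 1.29 and 2.83 CPM in mutant libraries, against 0.328, 0.0660 and 2.78 CPM in wt libraries. Mutant libraries held 38 to 92 counts, while wt replicates 1 and 2 held 10 and 2 counts and wt replicate 3 held 89. The wt mean therefore rests on replicate 3, and the log2 fold change of 0.87 ± 1.02 (SE) became 3.27 without that library and 0.32 without wt replicate 2.

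Cd163 encodes the receptor through which macrophages clear haemoglobin bound to haptoglobin. It lies on chromosome 6, 124304656 to 124330527 (plus strand), the same chromosome as Olr1. It had 1.66, 0.136 and 1.05 CPM in mutant libraries, against 1.18, 0 and 0.188 CPM in wt libraries. The counts behind these values were 60, 4 and 34 in mutants and 36, 0 and 6 in wt, so each group held libraries with almost no reads. A count of 0 in wt replicate 2 allows a level of up to 0.0991 CPM. The log2 fold change was 1.05 ± 1.34 (SE), and it was 0.37 without mutant replicate 1 and 3.27 without wt replicate 1.

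Markers of alveolar macrophages, cells that carry Msr1, were summed over 13 genes. The sums were 704, 526 and 1227 CPM in mutant libraries, against 482, 405 and 280 CPM in wt libraries, and 10 of the 11 tested markers had a positive log2 fold change. The gene Chil3, which neutrophils also express, gave much of the sum at 631 ± 328 CPM in mutant libraries, against 248 ± 79.5 CPM in wt libraries. Without Chil3 the other 12 genes summed to 183, 154 and 227 CPM in mutant libraries, against 163, 140.4 and 118 CPM in wt libraries, so the groups overlapped, and the ratio of 2.11 became 1.34. Much of that remaining sum was Car4, which overlapped between groups, at 108 ± 35.0 CPM in mutant libraries, against 94.8 ± 15.5 CPM in wt libraries. A sum that also leaves out Car4 was not computed. Krt79, Ctsk, Siglec1 and Plet1 were, like Chil3, higher in every mutant library than in any wt library, with log2 fold changes of 0.90 to 1.40. Over all tested genes 6.82% were higher in every mutant library in this way. By edgeR's quasi-likelihood test the adjusted p of these markers ran from 0.294 for Ctsk to 0.797 for Siglec1. Ear2 was at 8.99 ± 2.44 CPM in mutant libraries, against 7.64 ± 1.36 CPM in wt libraries, Ear1 was lower still, and Ear6 and Ear10 were at or near 0 in both groups. Among mutants Msr1 and Olr1 were both highest in replicate 3, where the sum of all 13 was highest. Wt replicate 3, with as much Msr1 as that library, had the lowest sum of all 6, and also the lowest Olr1. Olr1 did not follow the sum in the other libraries. Mutant replicate 2 had more Olr1 than mutant replicate 1, 96.2 against 89.8 CPM, at a lower sum, 526 against 704 CPM. Among wt libraries Olr1 was highest in replicate 2, at 68.1 CPM, and the sum in replicate 1, at 482 CPM. The part of alveolar macrophages in the Olr1, Cd68 and Msr1 values was not tested.

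Cxcr6 marks resident T cells, NK T cells and innate lymphoid cells. The gene spans chromosome 9, 123806475 to 123811760 (plus strand). It had 2.32, 1.90 and 2.74 CPM in mutant libraries, against 3.15, 3.96 and 4.38 CPM in wt libraries. It was the only gene of the 8 with all mutant libraries below all wt libraries, at a ratio of wt over mutant of 1.65 and a log2 fold change of -0.72 ± 0.37 (SE). The counts were 56 to 89 in mutants and 96 to 140 in wt. Markers of T, NK and innate lymphoid cells, summed over 14 genes, stood at 39.6 to 44.0 CPM in mutant libraries, against 34.1 to 55.9 CPM in wt libraries. Wt replicate 2, with the lowest such sum, had more Cxcr6 than any mutant library. Il7r, the interleukin 7 receptor gene of the same list, was lower in every mutant library than in any wt library, as Cxcr6 was, at 3.20 ± 1.56 CPM in mutant libraries, against 5.33 ± 0.168 CPM in wt libraries. Icos of that list went the other way, with every mutant library above every wt library, at 2.02 ± 0.166 CPM in mutants, against 1.02 ± 0.432 CPM in wt. Over all tested genes 6.21% had every mutant library below every wt library, and 6.82% had every one above. By edgeR's quasi-likelihood test the adjusted p was 0.804 for Il7r and 0.834 for Icos. A positive log2 fold change was found for 5 of the 14 genes. The part of lymphoid cells in the Cxcr6 values was not tested. Cxcl16, its ligand, was at 13.3 ± 4.91 CPM in mutant libraries, against 10.4 ± 3.80 CPM in wt libraries (SD, n = 3 each), and the groups overlapped.

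**Figure D3:**
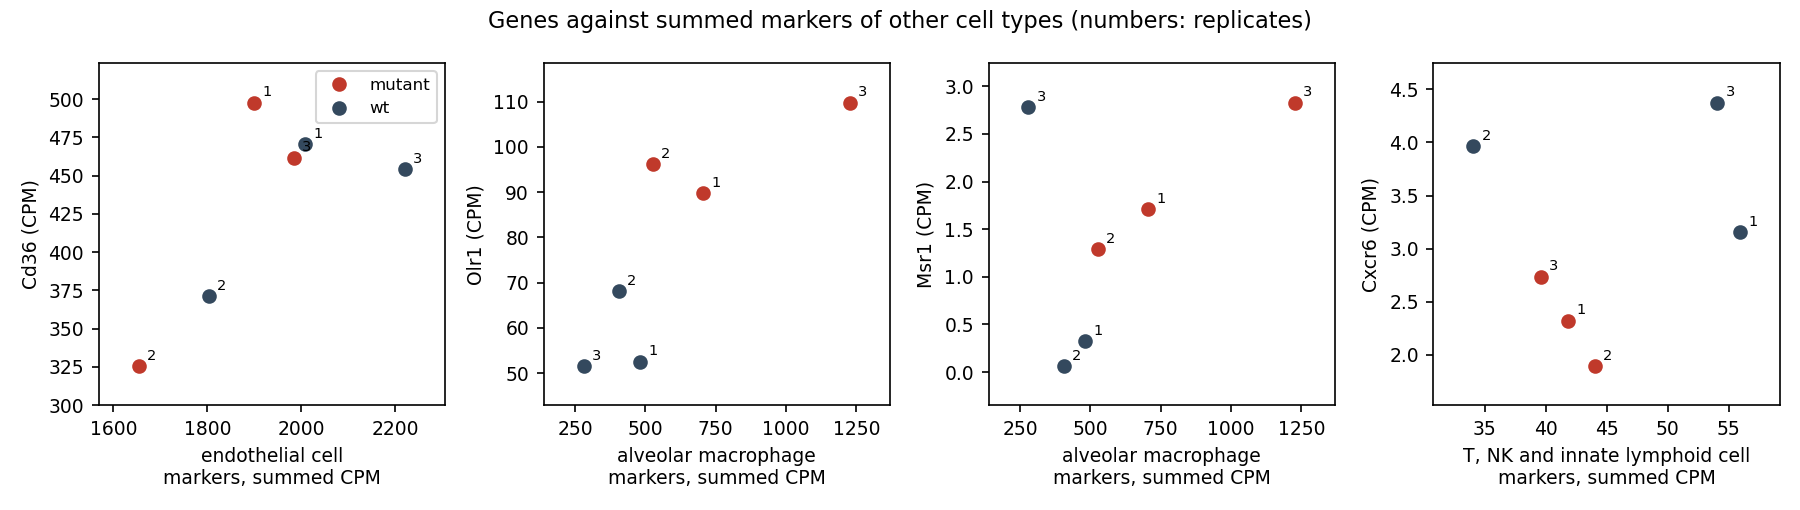
CPM of Cd36, Olr1, Msr1 and Cxcr6 against the summed CPM of markers of another cell type in the same library, with replicate numbers beside the points. Cd36 is lowest in the libraries with the lowest endothelial sums, Olr1 and the alveolar macrophage sum are both higher in mutants, and wt replicate 3 has high Msr1 at the lowest macrophage sum.

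Taken as a list, all 8 genes passed the filter on low counts, Cd163 with at least 10 counts in 2 mutant libraries and 1 wt library and Msr1 in 3 and 2. By edgeR's quasi-likelihood test 0 of the 8 had an adjusted p under 0.05, where 0.00634% of all tested genes did. At an unadjusted p under 0.05 edgeR had 2 of the 8, Olr1 and Cd68, against 6.73% of all genes. DESeq2 called 1, Olr1, against 0.983% of all genes, and limma-voom 0. EdgeR also called 1, Olr1, when low counts were not filtered, against 0.268% of genes, and among genes averaging 10 CPM or more, against 0.260%. For 3 genes every mutant library exceeded every wt library, against 6.82% of all tested genes, and for 1 every mutant library was lower, against 6.21%. A positive log2 fold change was found for 6 of the 8, against 50.7% of all genes. The median was 0.24, or 0.23 without Olr1, and 0.01 over all tested genes. As the set was put together with this comparison known, these counts describe it and are not read further.

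Markers of other cell types were also summed by library. Sums of alveolar epithelial markers were 604 to 1038 CPM in mutant libraries, against 310.4 to 598 CPM in wt libraries, and those of fibroblast markers 487 to 813 and 381 to 452 CPM. Those of interstitial macrophage and monocyte markers were 877 to 927 CPM in mutant libraries, against 973 to 1001 CPM in wt libraries. Csf1r gave much of this last sum, at 580 ± 33.9 CPM in mutant libraries, against 648 ± 29.3 CPM in wt libraries. A positive log2 fold change was found for 5 of the 12 tested genes of that list, and its sum without Csf1r was not computed. These 3 lists and the alveolar macrophages had groups that did not overlap, the alveolar macrophages only with Chil3 counted, with an exact two-sided permutation p of 0.1, the smallest that 3 libraries against 3 allow, and an adjusted p of 0.275 over the 11 marker lists. The neutrophil list, at 16372 to 21608 CPM in mutant libraries, against 19282 to 20816 CPM in wt libraries, overlapped, as did the endothelial, platelet and lymphoid lists above. B and plasma cell markers summed to 436 to 466 CPM in mutant libraries, against 288 to 468 CPM in wt libraries. Dendritic cell markers were at 41.2 to 52.1 and 37.9 to 44.5 CPM, and eosinophil and mast cell markers, with Epx at 0 in every library, at 91.2 to 111 and 94.2 to 118 CPM. Kit gave most of this last sum, at 96.5 ± 11.9 CPM in mutant libraries, against 101 ± 10.04 CPM in wt libraries. The 7 overlapping lists had exact permutation p-values of 0.4 to 0.5. In this design any sum whose groups do not overlap gives a p of 0.1. The marker genes were also chosen after values were seen, so these p-values are a description only.

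Other scavenger receptors were read from a list of 18 genes, of which 16 were tested. By edgeR 0 were higher and 0 lower at an adjusted p under 0.05, and without adjustment 3 were higher and 0 lower at p under 0.05, against 6.73% of all tested genes in either direction. DESeq2 called 2, against 0.983% of all genes, and limma-voom 0, against 0.00634%. A positive log2 fold change was found for 10 and a negative one for 6, and the median was 0.45 against 0.01 over all tested genes. Lrp1, a large endocytic receptor for lipoproteins and protease complexes, stood at 69.4 ± 1.74 CPM in mutant libraries, against 46.0 ± 1.78 CPM in wt libraries (SD, n = 3 each), a log2 fold change of 0.59 ± 0.12 (SE) with an adjusted p of 0.272. Ager, the receptor for advanced glycation end products and a gene of type 1 alveolar epithelium, was at 98.0 ± 39.5 and 54.8 ± 10.02 CPM (adjusted p = 0.484). Colec12, a collectin-type scavenger receptor, was at 33.3 ± 4.31 and 22.8 ± 2.71 CPM (0.498), and Marco, a receptor of alveolar macrophages, at 9.06 ± 1.81 and 5.33 ± 2.44 CPM (0.749), mutant before wt in each case. For Marco the groups overlapped. The alveolar epithelial marker sums given above did not overlap, with mutants above wt, and those of alveolar macrophages did not only with Chil3 counted. The part of either cell type in these values was not tested.

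A second list held 20 ligands, cargo proteins, signalling partners and sheddases of the 8 genes. All 20 were tested, and 0 passed in either direction by edgeR, and without adjustment 4 were higher and 1 lower at p under 0.05, against 6.73% of all genes in either direction. DESeq2 called 1, against 0.983% of all genes, and limma-voom 0. A positive log2 fold change was found for 11, and the median was 0.05. Thbs1, the Cd36 ligand thrombospondin 1, was at 4275 ± 33.7 CPM in mutant libraries, against 3232 ± 109 CPM in wt libraries (log2 fold change 0.40 ± 0.07, adjusted p = 0.242). Hmox1, the haem oxygenase that degrades haem taken up through Cd163, was at 75.4 ± 2.52 CPM in mutant libraries, against 95.7 ± 2.95 CPM in wt libraries (adjusted p = 0.498). The tetraspanin genes Cd81 and Cd9, whose proteins associate with CD36 at the membrane, were at 117 ± 13.8 and 798 ± 114 CPM in mutant libraries, against 92.1 ± 5.09 and 620.1 ± 104 CPM in wt libraries (adjusted p = 0.584 and 0.636).

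The third list held 22 genes of lipid uptake, storage and efflux, all tested. By edgeR 0 were higher and 0 lower, and without adjustment 5 were higher and 0 lower at p under 0.05, against 6.73% of all genes in either direction. DESeq2 called 2, against 0.983% of all genes, and limma-voom 0. Positive log2 fold changes were found for 16, and the median was 0.13. The very-low-density lipoprotein receptor gene Vldlr had a log2 fold change of 1.32 ± 0.30 (SE, adjusted p = 0.294). Lipa, the lysosomal acid lipase, was at 251 ± 36.1 CPM in mutant libraries, against 175 ± 24.5 CPM in wt libraries (adjusted p = 0.391). Nr1h3, the oxysterol-sensing nuclear receptor LXR alpha, was at 9.29 ± 1.94 CPM in mutant libraries, against 5.25 ± 1.25 CPM in wt libraries (adjusted p = 0.593). Lpl, the lipoprotein lipase gene, was at 69.5 ± 9.59 CPM in mutant libraries, against 46.9 ± 15.3 CPM in wt libraries (adjusted p = 0.631), and the groups overlapped. Plin2, the lipid droplet coat gene of foam cells, and the cholesterol exporter gene Abcg1 overlapped between groups, at 371 ± 172 and 345 ± 39.1 CPM in mutant libraries, against 299 ± 34.4 and 354 ± 27.8 CPM in wt libraries.

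**Figure D4:**
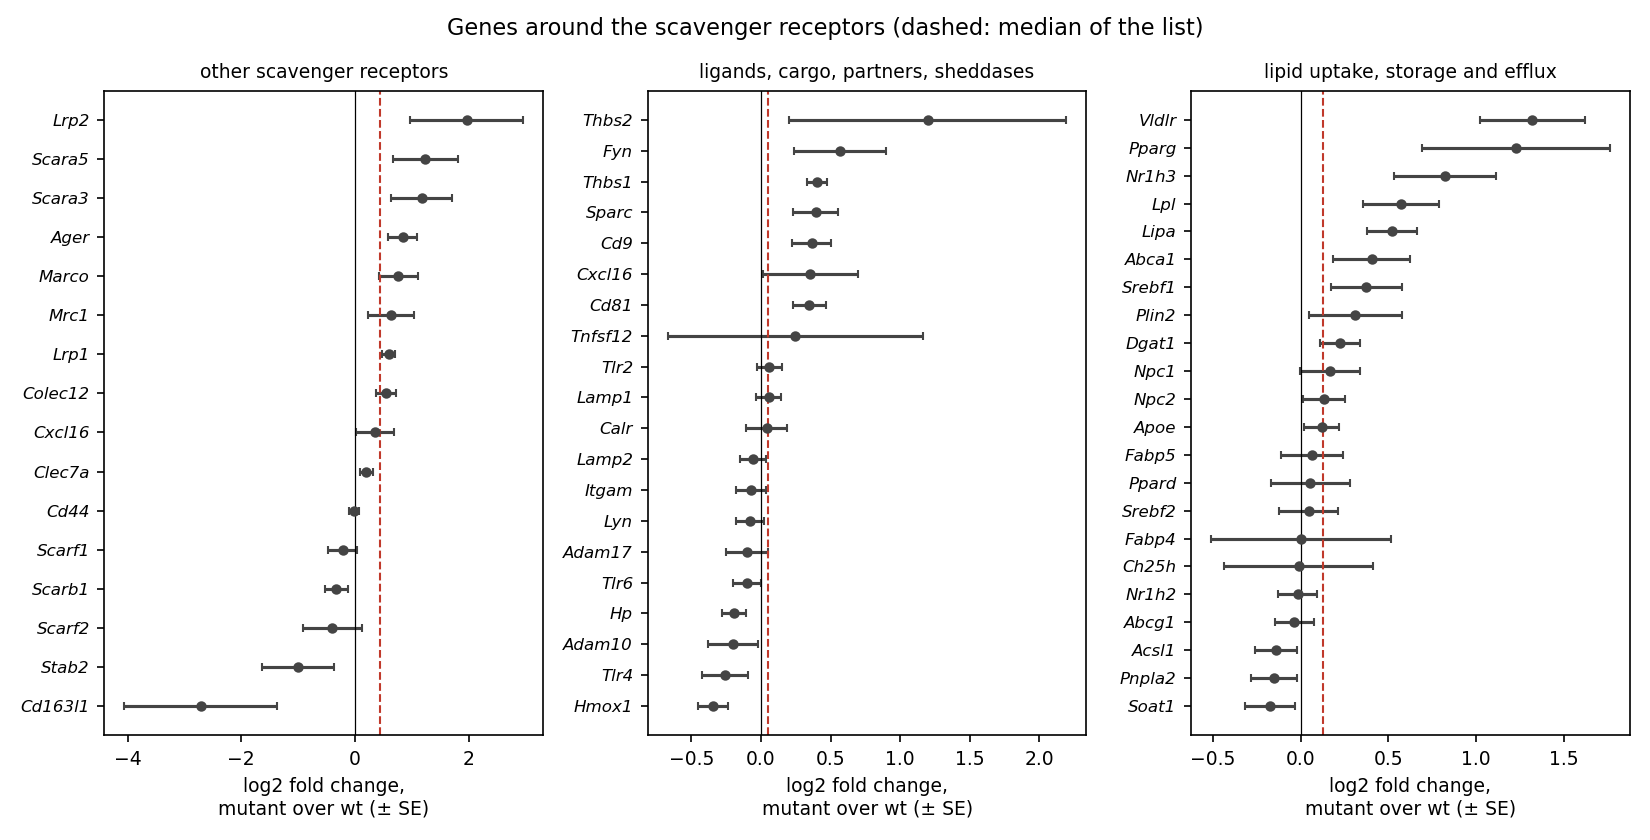
Log2 fold change, mutant over wt, ± SE from edgeR for the tested genes of the 3 lists, with the dashed line at each list's median of 0.45, 0.05 and 0.13. Genes of the scavenger receptor list with large values, such as Lrp2 and Cd163l1, also have wide errors.

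Olr1 lies in the natural killer gene complex, a cluster of C-type lectin genes on chromosome 6, so its neighbours were examined. Within 500 kb there were 47 genes in the table, and 23 passed the filter. By edgeR 0 of the 23 had an adjusted p under 0.05, 11 had a positive log2 fold change and the median was -0.05. For 1 of the 23, Clec12b, each mutant library exceeded each wt library, against 6.82% of all tested genes. For Clec9a each mutant library was below each wt library, against 6.21% of all tested genes. Clec7a, the beta-glucan receptor Dectin-1 and the most abundant neighbour, 12.5 kb away, was at 1123 ± 159 CPM in mutant libraries, against 977 ± 35.9 CPM in wt libraries (log2 fold change 0.20 ± 0.11, adjusted p = 0.808). Clec12a, an inhibitory receptor for uric acid crystals, was at 158 ± 28.6 and 130.4 ± 25.4 CPM, Clec1a at 81.2 ± 5.49 and 76.5 ± 10.5 CPM, the activation marker Cd69 at 64.8 ± 2.94 and 63.2 ± 3.69 CPM and the autophagy gene Gabarapl1 at 28.5 ± 6.76 and 24.0 ± 3.20 CPM, mutant before wt. The log2 fold change was negative for 2310001H17Rik, at 41.5 ± 9.30 CPM in mutant libraries, against 47.6 ± 8.60 CPM in wt libraries, and for Clec9a, at 7.78 ± 0.182 CPM in mutant libraries, against 9.17 ± 1.25 CPM in wt libraries. None of the 8 neighbours with a mean of at least 5 CPM had a log2 fold change as large as that of Olr1. Under 5 CPM, Gm43914 had a larger one, 1.28 ± 0.86 (SE). As Olr1 was chosen for its difference, nothing is read from this.

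**Figure D5:**
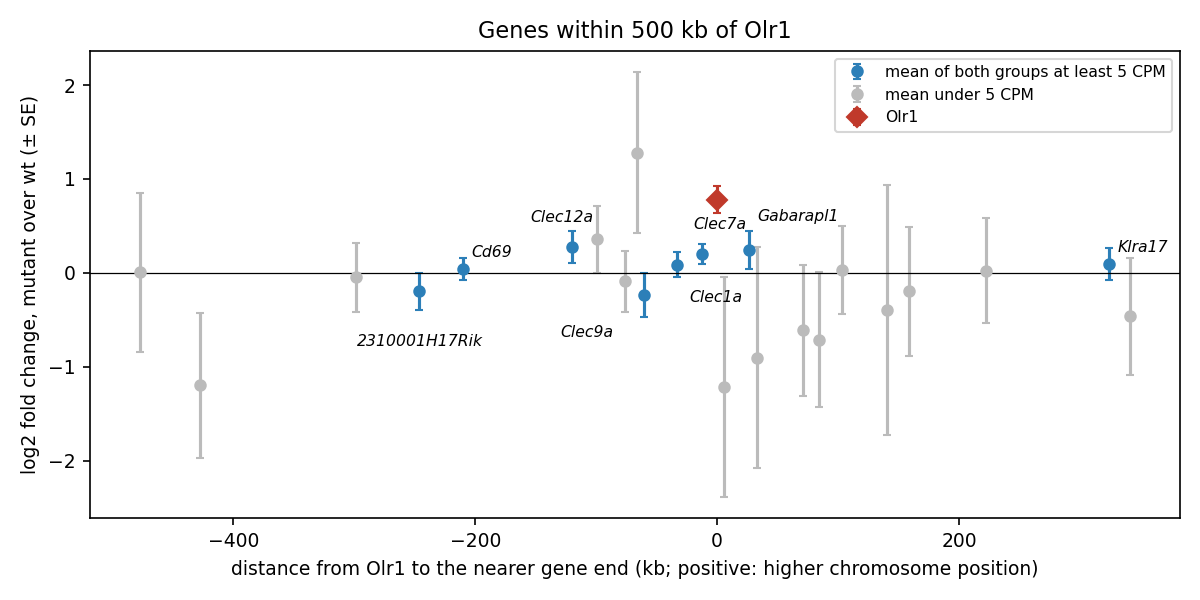
Log2 fold change, mutant over wt, ± SE from edgeR of the tested genes within 500 kb of Olr1, against the distance in kb from Olr1 to the nearer gene end. Olr1 (diamond) is at 0.78, while its neighbours with a mean of at least 5 CPM (blue) lie near 0 and those under 5 CPM (grey) have wide errors.

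The genes whose log2 CPM followed that of Olr1 most closely were searched among the other 6909 genes averaging 10 CPM or more. The highest Pearson r over the 6 libraries, with no test, belonged to Rabgef1 (0.995), Impact (0.994), Tgoln1 (0.991), Il1r2 (0.989), Eif4a-ps4 (0.987) and Cd68 (0.984). Rabgef1, an exchange factor for the early endosome GTPase Rab5, was at 888 ± 49.1 CPM in mutant libraries, against 605 ± 85.0 CPM in wt libraries (SD, n = 3 each). The trans-Golgi network gene Tgoln1 was at 651 ± 30.9 and 519 ± 32.8 CPM, and the interleukin 1 decoy receptor gene Il1r2 at 7173 ± 602 and 5165 ± 674 CPM, mutant before wt. Impact, a regulator of the stress kinase GCN2, was at 63.3 ± 5.75 CPM in mutant libraries, against 41.1 ± 4.24 CPM in wt libraries. Eif4a-ps4 is a pseudogene that can share reads with its parent gene, so its level is uncertain. In all 6 the mutant libraries lay above all wt libraries, as in Olr1, and the likeness follows from that shift together with the order within groups. Of the other members of the set, Stab1 had an r of 0.622 with Olr1, Scarb2 0.497, Cd36 -0.203 and Cxcr6 -0.748, while Msr1 and Cd163 are too sparse for the measure.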

How the data were processed

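RNA from Ly6G-sorted lung neutrophils was made into cDNA with SMART-Seq v2 and Nextera XT, which do not mark strand, per the labels' protocols. The authors deposited raw read counts per gene. The submitters' processing notes name STAR, featureCounts and GRCm38, without versions. Without molecular identifiers counts include PCR copies, so floors cover counting error only. Symbols came from GENCODE M21 (55094 identifiers matched exactly, 300 without version, 93 not).

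Genes were kept by filterByExpr (minimum count 10, 99.9% of counts) and scaled by TMM. The quasi-likelihood test of edgeR 4.0.16 in R 4.3.3 gave mutant over wt, and p-values were adjusted after Benjamini-Hochberg over 15774 genes with a threshold of 5%. The standard error is the fold change over the square root of F. TPM used the summed exon lengths in the table. Marker sums were compared over all 20 assignments of 3 of 6 libraries. Alternatives were other scalings, filters, DESeq2 1.42.0, limma-voom 3.58.1 and leaving out libraries. On simulated counts of 15774 genes for this comparison, 28% of genes changed 2-fold and 8% of those changed 1.5-fold were recovered.

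The members and lists were chosen with earlier results of these data known. Named are the 8 genes, up to 4 genes with the smallest p of each list, neighbours within 500 kb of Olr1 and the 6 genes most like it (log2 CPM, prior count 2). Some list genes are not reported here and were left out of their lists' counts. Motifs, marker genes, Cxcl16, Plin2, Abcg1, Lrp2, Cd163l1 and Nt5dc2 were chosen after values were seen. The NF-kB and CLEAR motifs were shortened at their ends after a first search, and as the shorter forms have 0 matches in the windows of the set, so have the longer ones. Replicate numbers follow accession order and pair no samples.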

Additional observations from a re-analysis of the deposited data

How the results depend on the processing

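No paired analysis was possible because the labels carry no replicate numbers. The direction held for Olr1, Cd68, Scarb2, Stab1, Msr1, Cd163 and Cxcr6 under every alternative that gave a value. Olr1 ranged from 0.70 to 0.92 and Cd68 from 0.22 to 0.33 on the log2 scale. The log2 fold change of Cd36 turned positive with library totals alone (0.0040), among genes averaging 10 CPM or more (0.0084) and when scaled to Csf3r counts (0.084, an alternative chosen after seeing the data), and ran from -0.13 to 0.15 when each library was left out. The alveolar macrophage marker sum, mutant over wt, was 2.11 and became 1.34 without Chil3, also chosen after seeing the data. Limma-voom gave 2.07 for Msr1 and 2.15 for Cd163. Over all genes edgeR called 1 higher and 0 lower, DESeq2's Wald test 81 and 74, edgeR with no filter on low counts 41 and 29, and edgeR among genes averaging 10 CPM or more 14 and 4. In each of these 3 alternatives 1 of the 8 genes was called, Olr1, against 0.983%, 0.268% and 0.260% of all genes. Leaving out each library gave 0 to 1 higher, 0 to 1 lower and 0 of the 8 genes. The cause of these shifts was not tested. Msr1 and Cd163 each had libraries under the minimum of 10 counts.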
